A study of Arabidopsis thaliana with 3 samples.

Results

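The genes described here are 7 Arabidopsis thaliana genes of the secondary cell wall and of fruit opening: NST1, NST3, IRX9, COBL4, LAC4, IND and ADPG1. They were chosen with earlier results of these data known, and were taken by position from the 33857 loci for which transcript levels were deposited. Each position overlapped the protein-coding gene of that name in the reference annotation. Levels came from strand-specific RNA sequencing of leaf, inflorescence (the flowering shoot tip with buds and flowers) and silique (the fruit with its seeds). All 3 organs were from wild-type plants of the Columbia accession Col-0, aged 5.5 weeks and grown under 16 h of light. All had been shot at 3 weeks with uncoated 0.6 µm gold particles, without plasmid, 18 days before collection. Each organ gave 1 library, so no difference below has a replicate check, and no error or p-value could be computed. The labels give neither the number of plants pooled nor the stage of the fruits.

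Levels are in FPKM, which scales fragments by the length of the transcript and by the library. Depth is unknown, and because a value of exactly 0 may be a failed estimate it is given as listed at 0. Positions are printed as deposited, on the TAIR10 build with the start counted from 0. Each spans the exons and introns of a gene, and exon structure was not analysed here. A gene was counted as higher in an organ when the ratio of FPKM + 1 was at least 4 and the higher level was at least 5 FPKM. In whole organs, fewer cells of a type and less RNA per cell cannot be told apart.

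Secondary walls are laid down inside the primary wall after a cell has stopped growing, in xylem vessels, fibres, the anther endothecium and certain layers of the fruit. They consist of cellulose, xylan and lignin. In fibres, the anther endothecium and the fruit, NAC transcription factors of the NST group switch on the synthesis of these walls through a cascade of MYB factors. In the Arabidopsis fruit, a strip of cells along each valve margin forms a lignified layer beside a separation layer. The walls of the separation layer are dissolved by pectin-degrading enzymes, and the fruit opens there.

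All 7 genes had their highest level in silique, and 6 were in the order silique, inflorescence, leaf. Among 18697 loci that reached 5 FPKM in any organ, 32% were highest in silique and 21.1% had that order. Because the genes were chosen with earlier results known, shares over all loci here and below only describe the background. Against leaf, all 7 were at least 4-fold higher in silique, a call made for 12.2% of 17451 loci. Against inflorescence, 4 of the 7 were at least 4-fold higher in silique, against 7.26% of 17793 loci, and none was lower. These were NST3, IRX9, COBL4 and LAC4, all of the secondary wall, whereas IND and ADPG1, of fruit opening, and NST1 did not reach the limit. Between inflorescence and leaf only 3 of the 7 genes, ADPG1, LAC4 and COBL4, reached the minimum of 5 FPKM, and ADPG1 was counted as higher in inflorescence, against 12.1% of 17444 loci. NST1 and IND were below that minimum, with log2 ratios of leaf over inflorescence of -3.53 and -4.03 at a pseudocount of 0.1, where they were -1.52 and -1.92 at 1. These counts depend on the 1 FPKM added: at a pseudocount of 5, 4 genes were counted over leaf, 2 over inflorescence, IRX9 and COBL4, and 0 in inflorescence over leaf. In that last pair LAC4 joined ADPG1 at a pseudocount of 0.1 and with libraries scaled to a common median. No gene was called the other way, higher in inflorescence than in silique (5.52% of loci), in leaf than in inflorescence (8.11%) or in leaf than in silique (5.94%).

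**Figure D1:**
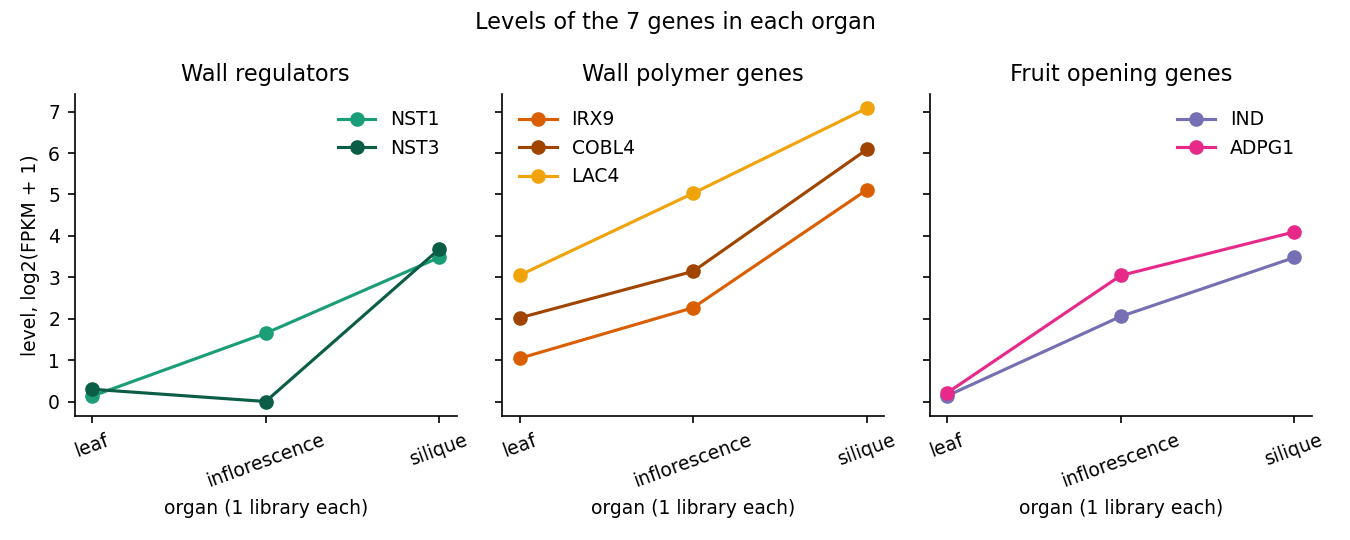
Level of each gene on the log2(FPKM + 1) scale (vertical axis) in leaf, inflorescence and silique (horizontal axis), 1 library per organ. Points are deposited values and lines only join the values of 1 gene. Every gene is highest in silique, and NST3 is listed at 0 in inflorescence.

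NST1 and NST3 encode NAC transcription factors that act together as master switches of secondary wall formation in fibres and in the lignified cells of the fruit. NST1 (AT2G46770, Chr2:19220726-19222916) was at 0.0932 FPKM in leaf, 2.13 FPKM in inflorescence and 10.2 FPKM in silique. NST3 (AT1G32770, named NAC012 in the reference, Chr1:11865342-11866950) was at 0.228 FPKM in leaf, listed at 0 in inflorescence and at 11.8 in silique. Both regulators were thus under 1 FPKM in leaf and close to each other in silique, and in inflorescence only NST1 had a value above 0. For NST1 the silique level was 4.76 times the inflorescence level in plain FPKM but 3.56 times after adding 1, so the added FPKM decided that it was not counted. At a pseudocount of 0.1 it was, with a log2 ratio of 2.20. NST3 was counted on its silique level, and no ratio to the inflorescence is given because the value there is listed at 0. At a pseudocount of 5 it was not counted, and neither NST gene was then counted against leaf.

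Their close relative NST2, which acts with NST1 in the anther endothecium, was at 0.330 FPKM in leaf, 1.03 FPKM in inflorescence and 2.64 FPKM in silique. NST1 made up 67.4% of the summed FPKM of the 3 NST genes in inflorescence, a share that takes the value of NST3 listed at 0 as it stands, and 41.2% in silique. The share of NST3 was 48.1% in silique. Such shares within a library do not depend on the scaling between libraries. In leaf the 3 genes together came to only 0.652 FPKM. MYB26, which acts above NST1 and NST2 in the anther, was listed at 0 in leaf and was at 8.88 FPKM in inflorescence and 5.47 in silique.

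Most other regulators of the secondary wall had higher values in silique than in inflorescence, though most did not pass the limit. Of 22 measured genes of this list, all 3 NST genes included, 3 were called higher in silique than in inflorescence and none lower. All loci gave 7.26% and 5.52%, shares taken over loci that reached 5 FPKM. Genes of the list under 5 FPKM in both organs, such as NST2 and MYB83, could not be called. Of the 20 detected genes 17 had silique above inflorescence, and the median log2 ratio was 1.17, or 0.53 at a pseudocount of 5. The median over all 23036 detected loci was 0.03, where detected means at least 1 FPKM in any organ. The other two counted beside NST3 were MYB103 and KNAT7. KNAT7, a homeodomain gene of the network, reached 64.5 FPKM in silique, against 9.71 in inflorescence and 1.91 in leaf, and MYB103 was at 9.60, 1.33 and 0.156 in the same order. At a pseudocount of 5 only 1 regulator was counted in this pair, and at 0.1 there were 6.

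MYB46, a direct target of the NST factors that switches on wall enzymes, was at 6.65 FPKM in silique, 3.01 in inflorescence and 1.02 in leaf. Its partner MYB83 was at 1.87, 0.917 and 0.213 in that order. Neither was counted as different between silique and inflorescence. MYB20 went against the list between leaf and inflorescence, at 11.9 FPKM in leaf, 2.11 FPKM in inflorescence and 8.96 FPKM in silique, a call lost at a pseudocount of 5 and with median scaling. Against leaf, 8 of the 22 regulators were called higher in silique and none lower, where all loci gave 12.2% and 5.94%. At a pseudocount of 5 there was 1 called higher in silique than in leaf.

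**Figure D2:**
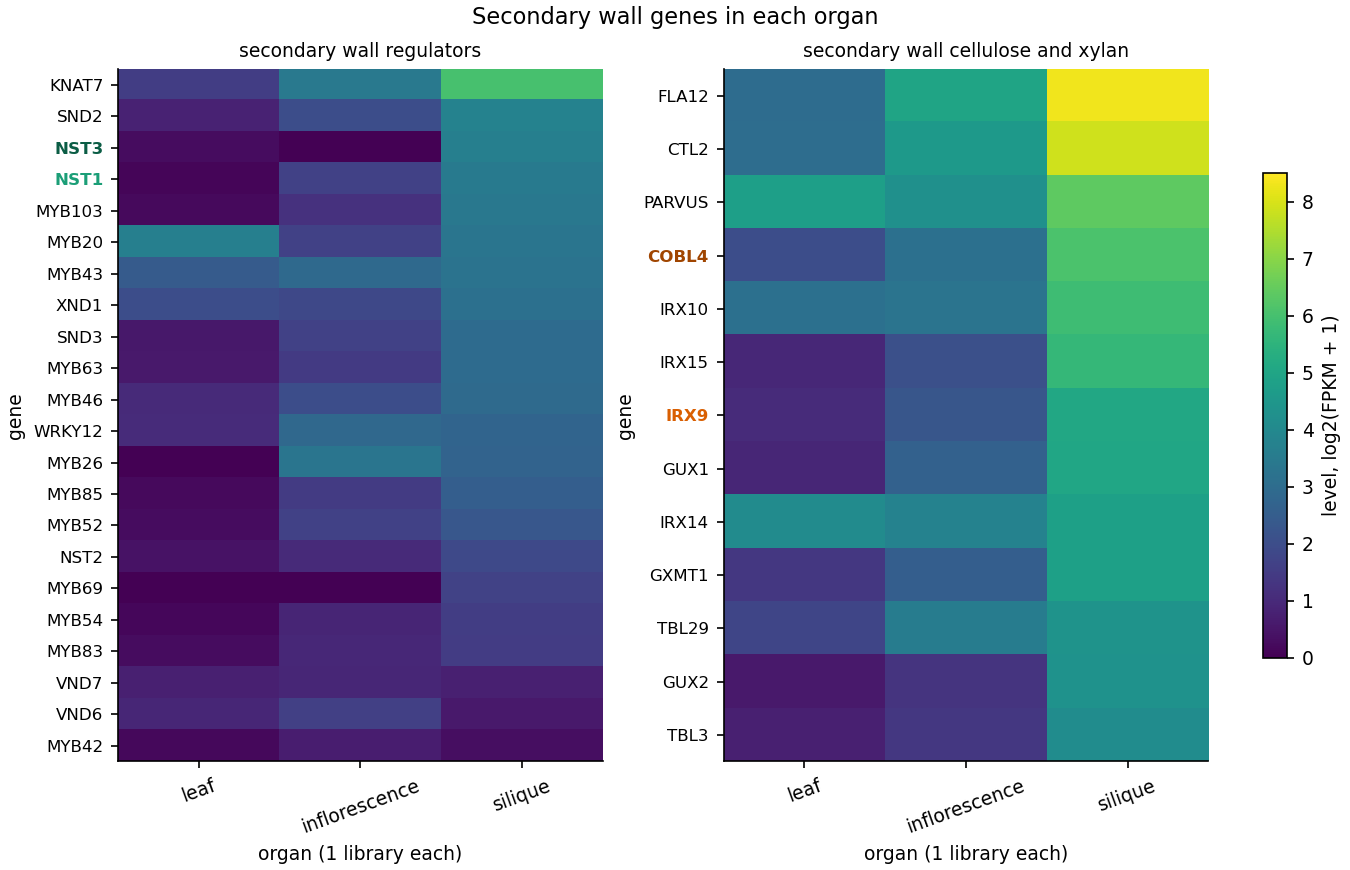
Levels on the log2(FPKM + 1) scale (colour) of 22 secondary wall regulators and 13 genes of secondary wall cellulose and xylan (rows, ordered by silique level) in the 3 organs (columns, 1 library each). The genes described here are in bold. In the second panel all 13 rows are highest in silique, while MYB20, MYB26, WRKY12, VND6, VND7 and MYB42 in the first panel are not.

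IRX9, COBL4 and LAC4 each stand for 1 of the wall's main polymers. IRX9 encodes a glycosyltransferase that extends the xylan backbone. IRX9 (AT2G37090, Chr2:15587393-15589257) was at 1.06 FPKM in leaf, 3.81 FPKM in inflorescence and 33.6 FPKM in silique. Its silique level was 8.81 times that in inflorescence in plain FPKM, the widest such ratio of the 6 genes with a value above 0 there. The log2 ratio of FPKM + 1 was 2.85, which ranked 764th of the 17793 loci.

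COBL4 encodes a COBRA-like protein that is attached to the cell surface and is needed for cellulose of the secondary wall. COBL4 (AT5G15630, IRX6 in the reference, Chr5:5084703-5086792) was at 3.06 FPKM in leaf, 7.84 FPKM in inflorescence and 67.0 FPKM in silique. The silique level was 8.54 times the inflorescence level, with a log2 ratio of 2.94 after adding 1. COBL4 and IRX9 kept nearly the same ratio in both reproductive organs: COBL4 was 2.06 times as high as IRX9 in inflorescence and 1.995 times in silique, and 2.89 times in leaf.

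LAC4 encodes a laccase, a copper enzyme that oxidises lignin monomers so that they polymerise in the wall. LAC4 (AT2G38080, IRX12 in the reference, Chr2:15934459-15937616) was at 7.27 FPKM in leaf, 31.7 FPKM in inflorescence and 135 FPKM in silique. It had the highest level of the 7 genes in every organ, above 85.1% of all loci in inflorescence and 96.1% in silique. Its silique level was 4.25 times that in inflorescence, and its log2 ratio of 2.05 was just past the limit of 2. The call was lost at a pseudocount of 5, with 1.93, and when libraries were scaled to a common median, with 1.97. LAC4 differed less between inflorescence and silique than IRX9 did: it was 8.31 times as high as IRX9 in inflorescence and 4.01 times in silique.

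**Figure D3:**
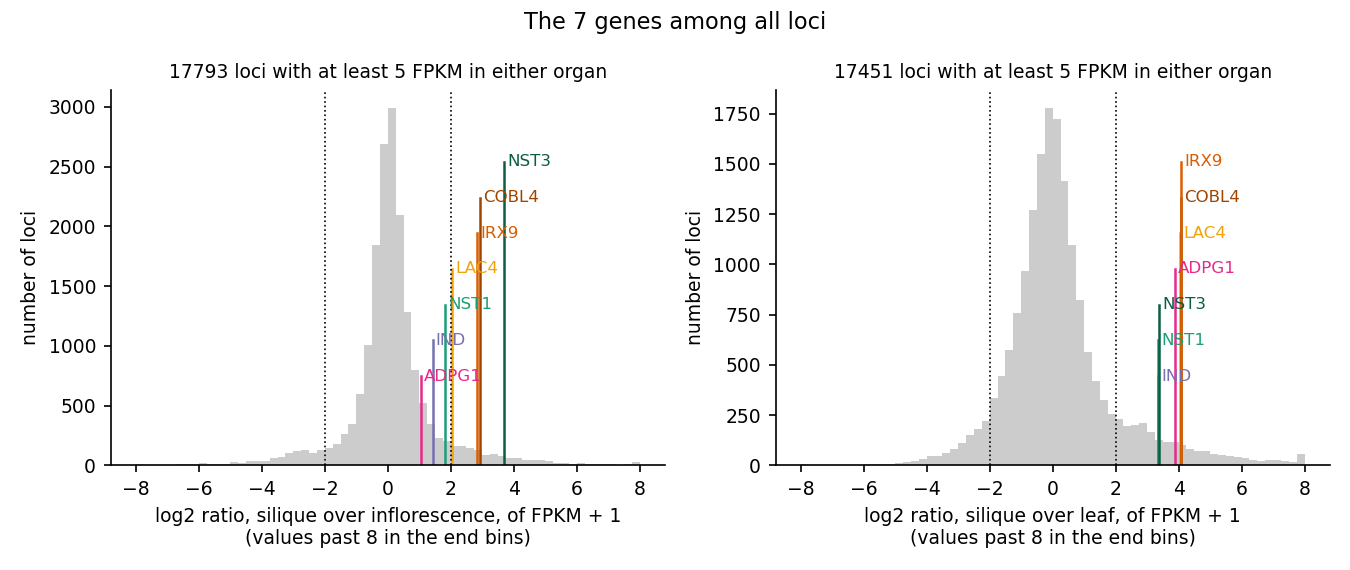
Number of loci (vertical axis) by log2 ratio of FPKM + 1 (horizontal axis), silique over inflorescence in one panel and silique over leaf in the other, for loci with at least 5 FPKM in either organ. Coloured lines mark the 7 genes and dotted lines the 4-fold limits. Over inflorescence the genes spread from 1.05 for ADPG1 to the position of NST3, which is set by the added 1 FPKM because its inflorescence value is listed at 0; over leaf all lie between 3.34 and 4.07.

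Most other cellulose and xylan genes were also counted as higher in silique. Of 13 measured genes of this list, 11 were called higher in silique than in inflorescence and none lower, where all loci gave 7.26% and 5.52%. Without IRX9 and COBL4 these were 9 of 11. Silique was above inflorescence in all 13, an order found in 54.4% of the 18697 loci. Median levels were 33.6 FPKM in silique, 7.84 in inflorescence and 2.42 in leaf, and the median log2 ratio of silique over inflorescence was 2.75. At a pseudocount of 5, 6 were counted and the median was 1.92.

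FLA12, a fasciclin-like arabinogalactan protein gene of fibres, was at 318 FPKM in silique, 30.4 in inflorescence and 6.97 in leaf. CTL2, a chitinase-like gene of secondary wall cellulose, was at 234, 22.7 and 7.30 in the same organs. IRX15, needed for normal xylan, was at 49.3, 3.18 and 0.932, and GUX1, which adds glucuronic acid side chains to xylan, at 31.6, 5.30 and 0.862. The genes not counted were IRX14, whose product acts with IRX9, at 12.6 FPKM in inflorescence and 27.7 FPKM in silique, and TBL29, a xylan acetylation gene, at 10.8 and 19.6. In leaf, IRX14 was at 16.2 FPKM and PARVUS, a glycosyltransferase gene of xylan synthesis, at 26.9, where IRX9 was at 1.06. PARVUS was counted between silique and inflorescence, at 82.6 and 18.2 FPKM.

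The cellulose synthase genes of the secondary wall, CESA4, CESA7 and CESA8, lay at positions that several identifiers share, so no value could be assigned to them. At each of these 3 positions, 1 of 2 identifiers had a similar order of organs. At the position of CESA4 it was at 129 FPKM in silique, 14.0 in inflorescence and 4.70 in leaf, at that of CESA7 at 62.7, 6.16 and 2.23, and at that of CESA8 at 73.9, 9.54 and 2.39. The other identifiers there were at 6.95, 11.5 and listed at 0 in silique and at 11.9, 16.0 and 0.149 in inflorescence. FLA11, IRX8, FRA8 and IRX15L also lay at positions of 2 identifiers. One of each pair was at 257, 23.1, 23.3 and 35.6 FPKM in silique against 42.6, 4.56, 7.58 and 6.94 in inflorescence, in that order of genes, and the other at 36.4, 101, 13.6 and 32.8 against 20.9, 76.4, 23.8 and 35.1. These positions were looked up after the values of the other genes were seen.

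Genes of primary wall cellulose differed less between organs. None of 8 measured genes was counted in any of the 3 pairs, where the shares over all loci ran from 5.52% to 12.2%. CESA9, under 5 FPKM in every organ, could not be counted. Silique was nonetheless above inflorescence in all 8, with a median log2 ratio of 1.10. Related genes of both wall types were therefore set beside each other within each library, where scaling plays no part. COBL4 was at 0.502 of the level of COB, the COBRA gene of the primary wall, in silique, at 0.0979 in inflorescence and at 0.0236 in leaf. For CTL2 against its primary wall relative CTL1 the ratio was 0.275 in silique, 0.0694 in inflorescence and 0.0251 in leaf. The ratio of IRX10 to its relative GUT1 was 1.73 in silique, 0.332 in inflorescence and 0.396 in leaf. In all 3 pairs of relatives, the ratio was highest in silique.

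Within the COBRA family, COBL4 took 19.3% of the summed FPKM of 9 measured genes in silique, 4.09% in inflorescence and 2.11% in leaf. The relatives COBL2 and COBL6 were also at least 4-fold higher in silique than in inflorescence. COBL2, known for cellulose in seed coat mucilage, was at 14.5 FPKM in inflorescence and 80.9 FPKM in silique, and COBL6 at 6.06 and 34.8. COBL10, which acts in pollen tubes, went the other way, at 53.0 FPKM in inflorescence and 6.05 in silique.

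The lignin genes measured were those of monomer synthesis and the laccase family. Of 12 measured monomer genes, none was counted as different between silique and inflorescence, where all loci gave 7.26% higher in silique and 5.52% lower. All 12 were nonetheless higher in silique, with a median log2 ratio of 1.13 and median levels of 104 FPKM in silique, 58.7 in inflorescence and 36.9 in leaf. PAL4, an enzyme of the first step, had the widest span, at 59.7 FPKM in silique, 20.8 in inflorescence and 2.04 in leaf. Its relative PAL1 was at 123, 73.0 and 26.3, PAL2 at 83.1, 31.0 and 18.8, and C4H, of the second step, at 215, 114 and 49.4.

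Of 13 measured laccase genes, LAC4 included, 5 were called higher in silique than in inflorescence and none lower, where all loci gave 7.26% and 5.52%. Laccases under 5 FPKM in both organs could not be called. At a pseudocount of 5 there were 2 called higher in silique. The median log2 ratio of the detected laccases was 2.05, 2.68 at a pseudocount of 0.1 and 0.78 at 5. LAC4 was the leading laccase in leaf and inflorescence, with 54.2% and 66.6% of their summed FPKM, and held 31.2% in silique. There TT10, a laccase gene that oxidises flavonoids in the seed coat, took 47.7%, at 206 FPKM in silique against 0.915 in inflorescence and 0.0999 in leaf. LAC2 was at 38.5 FPKM in silique, 1.56 in inflorescence and 1.53 in leaf. LAC5 was at 24.7, 2.66 and 0.650 in that order. The position of LAC17, which acts with LAC4 in stem lignin, held 2 identifiers, at 73.8 and 12.8 FPKM in silique and 24.9 and 4.62 in inflorescence. Those of LAC11 and LAC6 also held 2 each, all lower in silique. At LAC11 they were at 1.41 and 5.45 FPKM in silique and 6.71 and 8.43 in inflorescence. At LAC6 they were at 0.705 and 1.38 against 1.90 and 3.77. Another identifier, alone at a position that also overlaps LAC6, was at 168 FPKM in silique, 319 in inflorescence and listed at 0 in leaf. At the position of LAC8 the 2 identifiers were at 8.82 and 1.01 FPKM in silique and 8.97 and 0.682 in inflorescence.

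**Figure D4:**
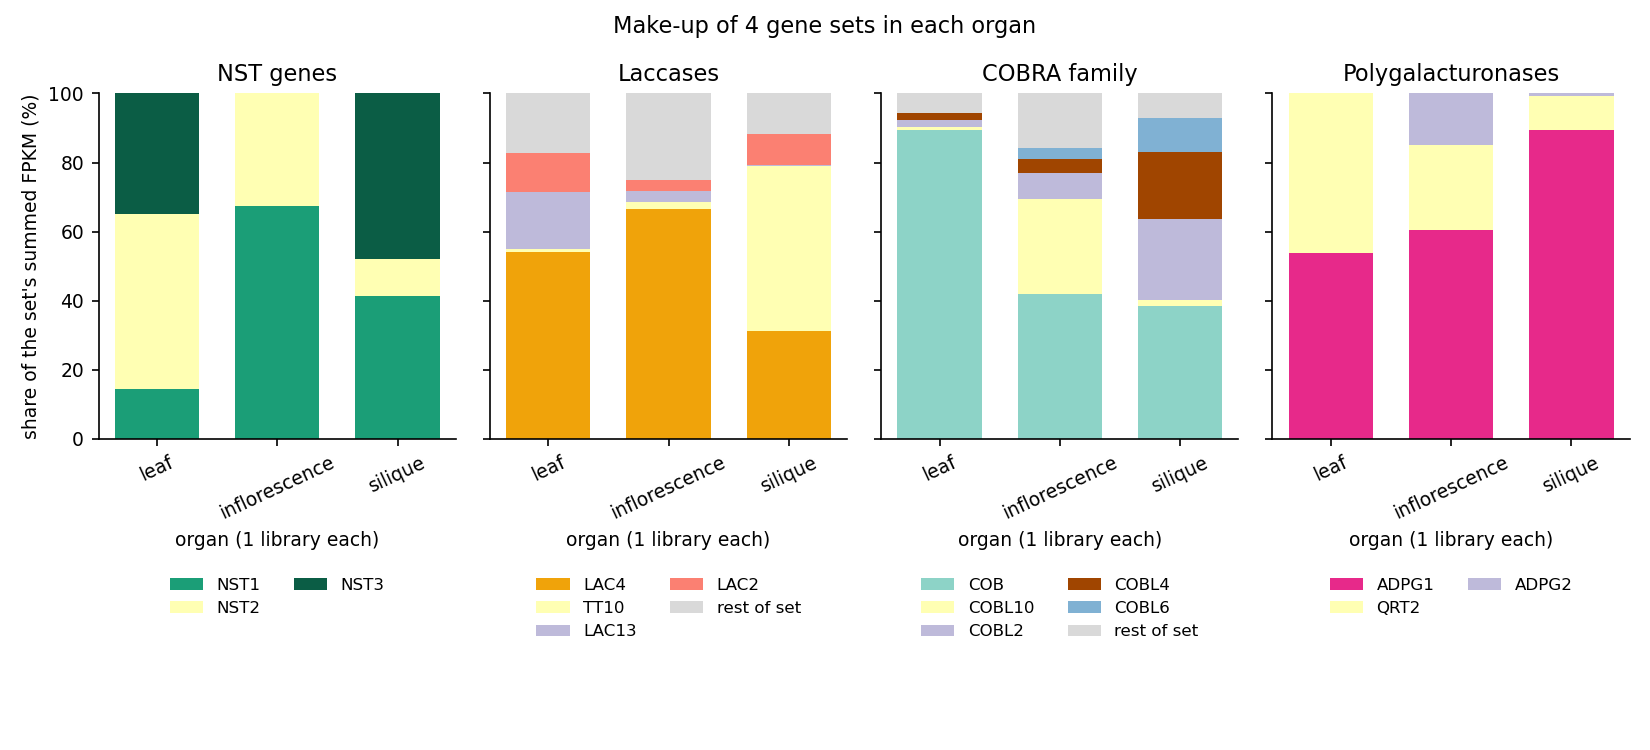
Share of the summed FPKM of each gene set (vertical axis, percent) held by each gene in the 3 organs (horizontal axis, 1 library each). The sets are the 3 NST genes, 13 laccases, 9 COBRA family genes and 3 polygalacturonases; genes under 10% in every organ are joined as the rest of the set. COBL4 and ADPG1 hold their largest shares in silique and LAC4 its smallest; leaf sums of the NST and polygalacturonase sets are under 1 FPKM.

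IND and ADPG1 are genes of the valve margin. IND encodes a bHLH transcription factor that specifies both the lignified and the separation layer. IND (AT4G00120, Chr4:41664-43197) was at 0.0994 FPKM in leaf, 3.15 FPKM in inflorescence and 10.1 FPKM in silique. Its silique level was 3.22 times that in inflorescence, with a log2 ratio of 1.42, short of the 4-fold limit. Its call against leaf, with a log2 ratio of 3.34, was lost at a pseudocount of 5, with 1.57. IND and NST1 were the closest pair among the 7 genes, at a distance of 0.41 over the 3 organs on log2(FPKM + 1). The farthest pair, NST3 and LAC4, was at 6.67, with the value of NST3 listed at 0 taken as it stands. This distance depends on level as well as on the order of organs.

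ADPG1 encodes a polygalacturonase, an enzyme that cuts pectin, and is needed for opening of fruits and anthers. ADPG1 (AT3G57510, Chr3:21283337-21285941) was at 0.155 FPKM in leaf, 7.25 FPKM in inflorescence and 16.1 FPKM in silique. The silique level was 2.22 times that in inflorescence, the narrowest of the 6 ratios, and the log2 ratio was 1.05. The log2 ratio was 3.89 for silique over leaf and -2.84 for leaf over inflorescence, so ADPG1 was far above its leaf level in both reproductive organs. The second of these calls was lost at a pseudocount of 5, with a log2 ratio of -1.25.

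Of the related polygalacturonase genes, ADPG2, which acts in fruit opening and in shedding of floral organs, was listed at 0 in leaf and was at 1.79 FPKM in inflorescence and 0.119 in silique. QRT2, which acts with both in anther opening, was at 0.133 in leaf, 2.95 in inflorescence and 1.79 in silique. ADPG2 and QRT2 were under 5 FPKM in every organ and could not be counted. Unlike these relatives, ADPG1 had a higher value in silique than in inflorescence, though it was not counted as different in this pair. Its share of the summed FPKM of the 3 genes was 60.4% in inflorescence and 89.4% in silique, while the sum in leaf was only 0.288 FPKM.

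IND was set beside other genes of fruit patterning. Of 14 measured genes, IND included, none was at least 4-fold higher in silique than in inflorescence and 1 was lower, where all loci gave 7.26% and 5.52%. These shares are over loci that reached 5 FPKM, and genes of the list under 5 FPKM in both organs could not be counted. The median log2 ratio was -0.93, and -0.42 at a pseudocount of 5. The gene counted was HEC3, a bHLH gene of gynoecium development, at 10.1 FPKM in inflorescence and 0.669 in silique. At a pseudocount of 0.1 there were 3 such genes and at 5 there were 0. PID, a kinase gene of auxin transport, was at 24.0 FPKM in inflorescence and 12.1 in silique, and JAG, of lateral organ growth, at 5.52 and 0.680. FUL and RPL, which confine the valve margin by repressing its genes in the valve and the replum, were not counted in this pair, with FUL at 61.0 FPKM in inflorescence and 44.2 in silique, RPL at 25.4 and 16.5. IND had the widest silique excess of the 14.

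The genes SHP1 and SHP2, which act above IND, lay at positions with several identifiers. At the position of SHP2 both identifiers were higher in silique, at 68.1 and 27.0 FPKM, than in inflorescence, at 28.9 and 16.9, and both were under 1 FPKM in leaf. At that of SHP1 the highest of 3 identifiers had 46.5 FPKM in inflorescence and 47.8 FPKM in silique. The others there were at 11.2 and 1.27 FPKM in inflorescence and 20.6 and 2.09 in silique. The positions of ALC and FIL, of the same list, held 2 identifiers each. Those of ALC were at 86.1 and 5.91 FPKM in inflorescence and 87.6 and 4.13 in silique, and those of FIL at 37.8 and 33.9 against 25.9 and 11.7.

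Among 8 measured genes of cell separation, ADPG1 included, none was counted as different between silique and inflorescence. All loci gave 7.26% higher in silique and 5.52% lower, shares taken over loci that reached 5 FPKM. Genes of the list under 5 FPKM in both organs, such as ADPG2 and QRT2, could not be counted. The median log2 ratio of the list was -0.80, or -0.30 at a pseudocount of 5. HSL2, a receptor kinase gene of organ shedding, was at 34.5 FPKM in silique, 8.66 in inflorescence and 7.43 in leaf. QRT3, a polygalacturonase gene that separates pollen grains, was at 7.99, 25.7 and 0.332 in the same order, and GH9C2, a cellulase-family gene, at 32.8, 71.7 and 17.0. Only 3 of the 8 had a higher value in silique than in inflorescence, and the widest ratios among them were those of HSL2 and ADPG1.

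**Figure D5:**
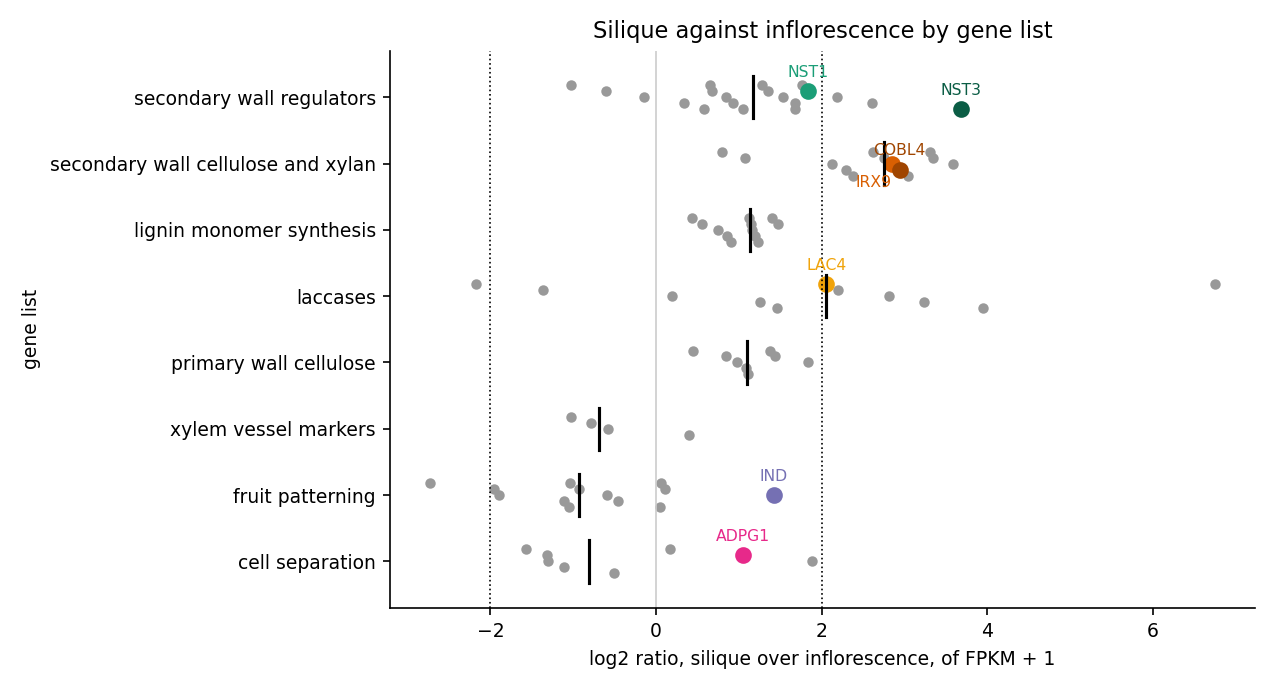
Log2 ratio of FPKM + 1, silique over inflorescence (horizontal axis), for detected genes of 8 lists (vertical axis), 1 library per organ. Grey points are genes, coloured points the 7 genes described here, black bars list medians and dotted lines the 4-fold limits. IRX9 and COBL4 lie near the median of 2.75 of their list, LAC4 is itself the laccase median of 2.05, and IND and ADPG1 lie above medians of -0.93 and -0.80; NST3 is placed by the added 1 FPKM.

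Markers of other tissues were also compared between the libraries. Of 5 xylem vessel markers none was counted as different between silique and inflorescence, where all loci gave 7.26% higher in silique and 5.52% lower. Against leaf, 2 of the markers, MC9 and RNS3, were counted as higher in inflorescence and in silique, where all loci gave 12.1% and 12.2%. The summed level of all 5 vessel markers was 86.8 FPKM in silique, 113 in inflorescence and 29.6 in leaf. XCP2, a vessel protease gene, was at 27.2, 41.2 and 17.7, while the nuclease gene RNS3 went the other way at 35.5, 26.6 and 3.00. VND7, a vessel master switch, was under 1 FPKM in every organ. Of the 4 detected vessel markers, only 1 had silique above inflorescence. The part of vessels in the levels of the 7 genes was not tested. The 5 cambium and phloem markers summed to 195 FPKM in silique, 103 in inflorescence and 336 in leaf. Most of each sum was SUC2, at 172, 65.5 and 284 FPKM in the same order. Only 1 of the 5, SUC2, had silique above inflorescence, and the median log2 ratio of silique over inflorescence was -0.47.

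Seed, pollen and photosynthesis markers set the organs far apart. The 4 seed storage markers summed to 34986 FPKM in silique against 102 in inflorescence and 227 in leaf. Those of pollen, also 4, summed to 1715 FPKM in inflorescence, 127 in silique and 36.3 in leaf. The 4 photosynthesis markers summed to 13305 FPKM in silique, 8291 in inflorescence and 32180 in leaf. The part of the seed, of pollen or of green tissue in the levels of the 7 genes was not tested.

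Each gene's nearest matches were sought among 13712 other named loci that reached 5 FPKM in any organ, by the distance over 3 organs on log2(FPKM + 1). COBL4 lay nearest to KNAT7, at a distance of 0.56. The nearest matches of IRX9 were RWP1 at 0.419, PELPK2 at 0.420 and GUX1 at 0.424. The nearest match of LAC4 was RNS1, at 0.310, that of IND was the transporter gene ABCG4, at 0.168, and that of ADPG1 was AT1G35537, at 0.228. NST1 lay nearest to AT3G25930, at 0.0366, and NST3, with its value listed at 0 taken as it stands, to AT3G04150, at 0.0797. Of all 21 matches, KNAT7 and GUX1 were in the lists of secondary wall genes.

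Loci beside the 7 genes on the chromosome were examined for the same difference between silique and inflorescence. Of 14 adjacent loci, none was at least 4-fold higher in silique than in inflorescence, against 7.26% of loci that reached 5 FPKM. Adjacent loci under 5 FPKM in both organs, such as those beside IND, could not be called. No other identifier overlapped the position of any of the 7 genes. Both loci counted as higher in inflorescence, a call made for 5.52% of all loci that reached 5 FPKM, flanked NST3. AT1G32763 was at 8.14 FPKM in inflorescence and listed at 0 in the other organs, and AT1G32780 was at 6.67 in inflorescence, 0.313 in silique and listed at 0 in leaf. NST3, between them, was itself listed at 0 in inflorescence.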

How the data were processed

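Per the labels' protocols, column-purified RNA was DNase-treated before sequencing. The authors deposited FPKM, 1 value per identifier and library, per the file headers. The submitters' processing notes name TopHat and TAIR10 without a version. The tool behind the FPKM, its annotation and scaling are not stated in the sources used. A few abundant transcripts in a library lower all its other FPKM values. Depth is unknown, so no counting interval is given. With 1 library per organ, organs were compared by a fixed rule of size on log2(FPKM + 1).

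Loci lie at 30747 positions. File starts were raised by 1. A locus alone at its position was named when it held 1 gene of the TAIR10.1 reference table with at least 50% of its length inside, covering at least 50% of it and lying in no other locus in that way; 25934 were named. Of 157 list entries, 126 were named, 29 were not, and 2 were dropped, as the reference has another name or none for their code. Genes named in the text were the 7, the 4 per list with the widest span over organs, those counted against a list's median, family and marker genes, and the 3 nearest matches of each. MYB103, MYB46, MYB83, IRX14, TBL29, FUL, RPL, ADPG2, QRT2, IRX10, PARVUS, F8H and the positions of unnamed genes were picked after values were seen. So were the sets for shares. The 7 genes and the lists were chosen with earlier results of these data known. No sequence was used here. The counting and naming steps were tested on simulated data. Python 3.11.15, pandas 2.3.3 and numpy 2.4.6 were used.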

Additional observations from a re-analysis of the deposited data

How the results depend on the processing

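All differences rest on 1 library per organ, and low levels carry an unknown counting error. No paired analysis was possible because each organ has 1 library and no result comes from a test. No library could be left out for the same reason. The alternatives were a pseudocount of 0.1 or 5, no minimum level, and scaling to a common median over the 12941 loci that reached 5 FPKM in every organ, which moved log2 levels by -0.17 in leaf and -0.08 in silique. No log2 ratio of the 7 genes that was counted changed its sign under any of these 4.

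Of the 7 genes, the number at least 4-fold higher in silique than in inflorescence was 2 at a pseudocount of 5, and the number higher in silique than in leaf was 4. The number higher in inflorescence than in leaf was 2 at a pseudocount of 0.1 and with median scaling, where LAC4 joined ADPG1, and 0 at a pseudocount of 5.

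For silique over inflorescence, a pseudocount of 0.1 gave 6 wall regulators, and one of 5 gave 1 regulator, 6 cellulose and xylan genes and 2 laccases. For inflorescence over silique, 3 fruit patterning genes were counted at 0.1, 0 at 5, and 1 laccase without a minimum. For silique over leaf, a pseudocount of 5 gave 1 regulator, 3 monomer genes, 0 fruit patterning genes and 1 of cell separation. For inflorescence over leaf, 0.1 gave 3 regulators, 3 cellulose and xylan genes and 1 laccase. A pseudocount of 5 gave 0 regulators, 0 monomer genes, 1 fruit patterning gene and 1 of cell separation there. Median scaling gave 1 cellulose and xylan gene and 1 laccase there, and no minimum gave 1 laccase. For leaf over inflorescence, 0 regulators were counted at a pseudocount of 5 and with median scaling. A larger pseudocount shrinks the ratios of low genes by construction. Of 72 recomputed list medians, 19 moved by over 1.5 times as a fold, all of them with another pseudocount.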
